A study of Mus musculus with 12 samples.

Results

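Transcript levels of 10 genes encoding activator protein 1 (AP-1) and related basic leucine zipper (bZIP) transcription factors were examined in bone marrow-derived macrophages (BMDM). The genes were Fos, Fosb, Fosl2, Jun, Junb, Jund, Atf3, Batf3, Jdp2 and Maff. They were taken by symbol from a count table of 24421 genes, in which all 10 had a row. BMDM were grown from the bone marrow of 3 wild-type C57BL/6 mice, A, B and C, in culture with 100 ng/mL M-CSF for 5 days, and the medium was changed on day 3. Each mouse gave 1 library to each of 4 groups. Cells received ovalbumin alone (Ova) or ovalbumin bound by IgG as an immune complex (IC), with the solvent DMSO or with 5.0 µM I-BET151 (iBET). iBET is a small molecule that keeps bromodomain proteins off acetylated histones. The exposure to ovalbumin or IC lasted 4 hours in every group, and no group was left without protein, so Ova with DMSO was the reference state. The labels give drug and stimulus as added together, whereas the study's methods add the drug first.

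AP-1 proteins bind DNA as dimers held together by their leucine zippers. Fos proteins need a Jun partner, while Jun proteins can also pair with themselves and with ATF proteins. Their usual sites are TGANTCA, the TRE, and TGACGTCA, the CRE. In macrophages, cross-linking of Fc gamma receptors by IC activates kinases that act on AP-1 at the level of transcription and of protein, and Fos, Jun, Junb and Atf3 are textbook immediate early genes. Atf3 and Jdp2 encode factors that often repress AP-1 sites, Maff encodes a small Maf protein without a transactivation domain, and Batf3 is known for its need in the development of cross-presenting dendritic cells.

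Total counts per library were between 7.55 M and 17.4 M. In mouse A's DMSO Ova library the ribosomal precursor Rn45s took 77.4% of the counts and left 1.77 M, against 7.25 M to 16.9 M in the others, so its values rest on fewer reads (74 for Jund and 3 for Maff). The 9 macrophage markers examined, among them Csf1r, Adgre1 and Cd68, were read in every group at a summed level of 6460 to 8660 CPM (counts per 1 M counts after TMM scaling). The markers of T cells, B cells, fibroblasts and dendritic cells summed to at most 1.32 CPM in any library, those of erythroid cells and of mast cells and basophils were at 0 in all 12, and neutrophil markers summed to between 5.65 and 35.1 CPM. The neutrophil sums overlapped between the groups. The macrophage sums did not overlap between DMSO IC (6460 to 7360 CPM) and iBET IC (7900 to 8600 CPM), nor did the dendritic cell sums (0.381 to 0.926 against 0.959 to 1.17 CPM), and both overlapped between the drug arms in Ova. With iBET, 1 of 9 macrophage markers rose in Ova and 2 in IC, where 31.3% and 34.8% of all genes were called. For the mean of both arms 3 rose and 1 fell, where 48.6% of all genes were called. The 1 dendritic cell marker that could be tested rose in Ova. The part of these markers in the results was not tested. In bulk RNA, fewer cells of a type and less RNA per cell cannot be told apart.

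Some of these genes carry matches to AP-1-like sites just before their own start. Windows of 250 bases before the start are printed for 3 genes (RefSeq, GRCm38.p6, 5′ to 3′ on the gene's strand, matches in capitals). Fos and Jun are shown because their transcripts moved in opposite directions with iBET, and Maff because it holds the full CRE and is among the members that rose with IC. None of the 3 windows overlaps an annotated exon of its gene.
Fos: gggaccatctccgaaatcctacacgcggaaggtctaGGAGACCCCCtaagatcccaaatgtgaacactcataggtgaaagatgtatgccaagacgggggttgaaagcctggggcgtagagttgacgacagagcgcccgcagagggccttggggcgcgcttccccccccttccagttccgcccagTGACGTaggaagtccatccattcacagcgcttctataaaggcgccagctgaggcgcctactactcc
Jun: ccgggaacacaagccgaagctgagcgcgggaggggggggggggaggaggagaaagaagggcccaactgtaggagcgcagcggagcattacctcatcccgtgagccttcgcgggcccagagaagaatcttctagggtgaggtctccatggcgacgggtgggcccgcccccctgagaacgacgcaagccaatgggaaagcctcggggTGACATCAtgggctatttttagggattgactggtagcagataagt
Maff: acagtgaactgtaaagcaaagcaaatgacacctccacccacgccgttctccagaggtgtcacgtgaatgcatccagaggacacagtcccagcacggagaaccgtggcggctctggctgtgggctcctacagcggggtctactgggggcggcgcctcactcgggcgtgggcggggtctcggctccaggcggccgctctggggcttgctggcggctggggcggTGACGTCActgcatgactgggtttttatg
The Fos window is chr12:85473640-85473889 on the plus strand of mm10, and its capitals mark the CRE core TGACGT, which begins 66 bases before the start, and a match to the NF-kB consensus. The Jun window is chr4:95052223-95052472 on the minus strand, and its capitals mark TGACATCA, the site known from the Jun promoter, 45 bases before the start. The Maff window is chr15:79347270-79347519 on the plus strand, lies before one of the 3 starts listed for the gene, and holds the CRE TGACGTCA 29 bases before it. Both strands were searched, and the core lies inside the CRE, so a CRE counts as a core as well. Of 32851 windows of the same length across the genome, 1.55% held the CRE, 6.47% the core, 2.93% the Jun-type site, 3.9% the NF-kB match and 6.75% the TRE. The windows of Junb, Jund and Batf3 held none of the motifs searched, nor did some of the Jdp2 and Maff windows. The Jund window ends 1210 bases upstream of the annotated gene start that was used for its length. Of the 250 bases of the Batf3 window, 163 lie in annotated exons of the gene, as do all 250 of the Fosl2 window. For Jund and Batf3 the lack of a match describes these windows alone. No window of a member held the TRE. A match describes letters in this window and no binding was measured.

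The members differed widely in level. Per kilobase of exon and averaged over the 12 libraries, Fos stood highest at 102 CPM per kb, and Junb (77.5), Jund (70.4), Atf3 (63.5) and Jun (57.4) followed. Jdp2 averaged 12.5 and Fosl2 6.05, while Maff (1.34), Fosb (0.544) and Batf3 (0.249) were low. The value for Jund rests on an annotated length of 1668 bases, whereas RefSeq places its start 1210 bases further upstream, and a longer transcript would give a lower level per kb. Batf3 had between 1 and 12 counts per library and did not pass the filter on low counts, so 9 of the 10 members were tested, among 11468 genes.

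**Figure D1:**
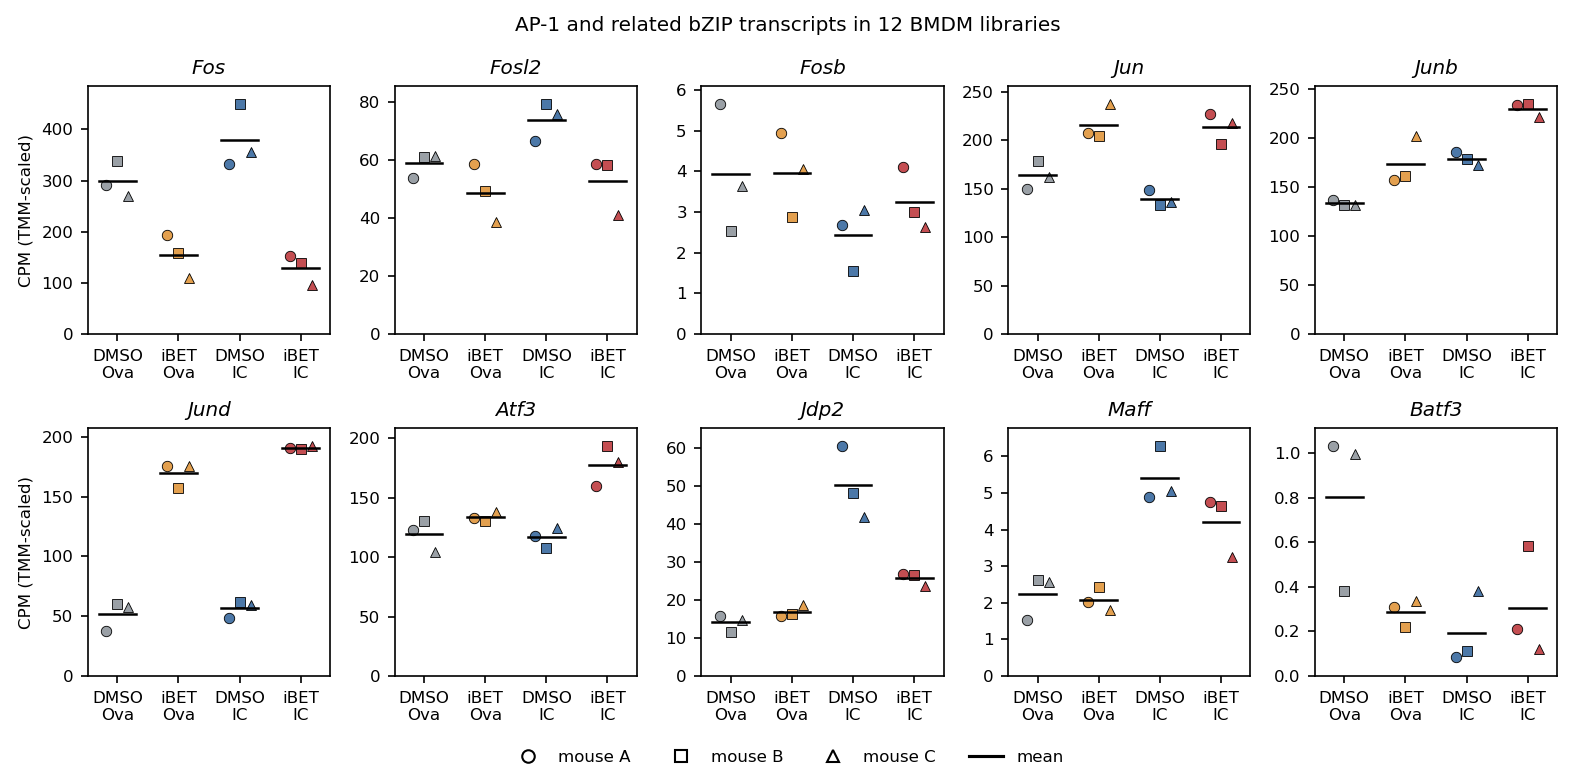
Level of each of the 10 members in TMM-scaled CPM (vertical axis, from 0) in the 4 groups, with 1 point per library, shaped by mouse, and a bar at the group mean. Fos was lower and Jund higher in all 6 iBET libraries than in all 6 DMSO libraries, and Jdp2 was highest in the 3 DMSO IC libraries.

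Among the Fos family, iBET lowered Fos itself. Fos encodes the partner that gives the classical dimer with Jun its strength. Fos read 292, 338 and 269 CPM in mice A, B and C with DMSO and Ova, and 193, 159 and 109 CPM with iBET and Ova. With IC it read 333, 449 and 355 CPM in DMSO and 153, 138 and 96.6 CPM in iBET. The lowest of the 6 DMSO libraries (269) lay above the highest of the 6 iBET libraries (193). The log2 change with iBET was -0.96 ± 0.22 (SE) in Ova, adjusted p = 0.00557 in edgeR's quasi-likelihood test, and -1.55 ± 0.22 in IC, adjusted p = 0.000232, or 1.95-fold and 2.93-fold lower. It was lower in 3 of 3 mice in each arm. Without mouse A's DMSO Ova library the Ova value was -1.03, adjusted p = 0.0108, and without all libraries of mouse B it was -0.89 and no longer past the threshold (adjusted p = 0.104).

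Fosl2, which encodes the longer-lived Fra-2, moved less. It read 66.6, 79.2 and 75.8 CPM with DMSO and IC against 58.7, 58.2 and 40.9 CPM with iBET and IC, so the groups did not overlap. The log2 change was -0.49 ± 0.17, adjusted p = 0.0375, but it was not past the threshold in 4 of the 12 fits that each left out 1 library (those without IBET_Ova replicate 2, DMSO_IC replicates 2 and 3 and IBET_IC replicate 3, where adjusted p ran up to 0.145) nor without mouse B or mouse C. In Ova the values were 53.9, 61.1 and 61.5 CPM in DMSO and 58.7, 49.2 and 38.5 CPM in iBET, which overlapped (log2 change -0.28, adjusted p = 0.237). The fits of both arms together gave -0.38 ± 0.12, adjusted p = 0.0176, which was lost without mouse B or mouse C (adjusted p of 0.137 and 0.166). Fosb was barely read, at 1.54 to 5.65 CPM (11 to 77 counts), with overlapping groups in all 4 comparisons and a 95% interval for the iBET change from -0.55 to 0.93 in Ova and from -0.29 to 1.16 in IC, on the log2 scale.

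The Jun family rose with iBET, and Jund rose by far the most of the 3. Jund encodes the Jun protein that is most steadily present in resting cells. Its level was 38, 60.1 and 57.4 CPM with DMSO and Ova and 176, 157 and 176 CPM with iBET and Ova. With IC it was 48.9, 62.1 and 59.4 CPM in DMSO and 191, 190 and 192 CPM in iBET. Every iBET library was above every DMSO library, with the lowest iBET value at 157 and the highest DMSO value at 62.1. The log2 change was 1.68 ± 0.15 in Ova (adjusted p = 7.8e-06, 3.2-fold) and 1.75 ± 0.15 in IC (adjusted p = 4.01e-06, 3.37-fold). It kept its call in each fit that left out 1 library or 1 mouse, and without mouse A's DMSO Ova library the Ova change was 1.48. The difference between the arms was 0.07, with a 95% interval from -0.37 to 0.52. Jund is a single exon, chr8:70698949-70700616 on the plus strand, and 877 of its 1668 exon bases are overlapped by the antisense gene Gm11175, which has no row in the count table. How strand was used in counting is not given in the sources used here, so reads of Jund and of its antisense partner cannot be told apart.

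Jun, the founding member of the family, read 150, 179 and 162 CPM with DMSO and Ova against 207, 204 and 237 CPM with iBET. In IC it read 149, 133 and 136 CPM against 227, 196 and 218 CPM. Neither pair of groups overlapped. The log2 change was 0.40 ± 0.10 in Ova (adjusted p = 0.0127) and 0.61 ± 0.10 in IC (adjusted p = 0.000707), higher in 3 of 3 mice each time. The IC value kept its call whichever library or mouse was left out, whereas the Ova value was 0.29 without mouse A's DMSO Ova library (adjusted p = 0.0671), 0.33 without mouse C's iBET Ova library (adjusted p = 0.0505), and past the threshold in neither the fit without mouse B nor that without mouse C.

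Junb, which often acts against Jun on the same sites, read 137, 131 and 131 CPM with DMSO and Ova and 157, 161 and 202 CPM with iBET and Ova. With IC it read 185, 178 and 172 CPM in DMSO and 233, 234 and 221 CPM in iBET. It was the member that rose both with iBET and, over both drug arms together, with IC. The 4 groups ordered as DMSO Ova, then iBET Ova and DMSO IC, which overlapped, then iBET IC. The log2 change with iBET was 0.38 ± 0.10 in Ova (adjusted p = 0.0144) and 0.36 ± 0.10 in IC (adjusted p = 0.0163). These are changes of 1.3-fold and 1.28-fold. The Ova call was lost without mouse C's iBET Ova library (adjusted p = 0.0527), and the IC call without mouse C's DMSO IC library, mouse A's iBET IC library or mouse B's iBET IC library (adjusted p of 0.05004 to 0.0518), and neither held without mouse B or without mouse C. The mean of both arms, 0.37 ± 0.07, kept its call in every one of these fits (adjusted p = 0.00109 with all libraries). Jun shares 232 exon bases with the antisense gene Junos and Junb 173 with Prdx2, on opposite strands.

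The make-up of the Fos and Jun transcript pools differed between iBET and DMSO. The Fos pool was the sum of Fos, Fosb and Fosl2, without Fosl1, which encodes Fra-1 and is not a member. Fosl1 averaged 7.58 CPM in DMSO Ova and 1.45 CPM in iBET Ova, and 13.5 and 2.89 CPM with IC. The shares and the ratio below do not include it. Fos made up 95% ± 0.629 (SD, n = 3) of the summed Fos, Fosb and Fosl2 level per kb in DMSO Ova and 91.9% ± 0.82 in iBET Ova, and 95.2% ± 0.511 in DMSO IC and 90.2% ± 0.413 in iBET IC. Jund made up 22% ± 3.78 of the summed Jun, Junb and Jund level in DMSO Ova and 41.7% ± 2.39 in iBET Ova, and 21.9% ± 2.78 in DMSO IC and 40.8% ± 0.738 in iBET IC. On this scale Jund held the highest share of the 3 Jun genes with iBET and Junb with DMSO (41.4% ± 4.06 in Ova and 49.9% ± 1.31 in IC). The order rests on the annotated lengths, that of Jund included. Without division by length Jund had the lowest of the 3 shares in every group, at 30.4% with iBET and 14.8% with DMSO in Ova and at 30.2% and 15.2% in IC, and the highest was Jun in Ova (38.7% with iBET and 46.9% with DMSO) and Junb in IC (36.2% and 47.6%). Its share was higher with iBET on both scales. Of 24 exact two-sided permutation tests of shares, 17 gave p = 0.1, which is the smallest that 3 against 3 libraries allow (adjusted p = 0.1412), and none can pass the threshold in this design. The summed Fos level over the summed Jun level, a ratio per kb chosen after its values were seen, was 1.01, 1.01 and 0.854 in the 3 DMSO Ova libraries, 0.373, 0.321 and 0.191 in iBET Ova, 0.951, 1.28 and 1.04 in DMSO IC, and 0.25, 0.235 and 0.164 in iBET IC. All 6 iBET values lay under all 6 DMSO values.

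**Figure D2:**
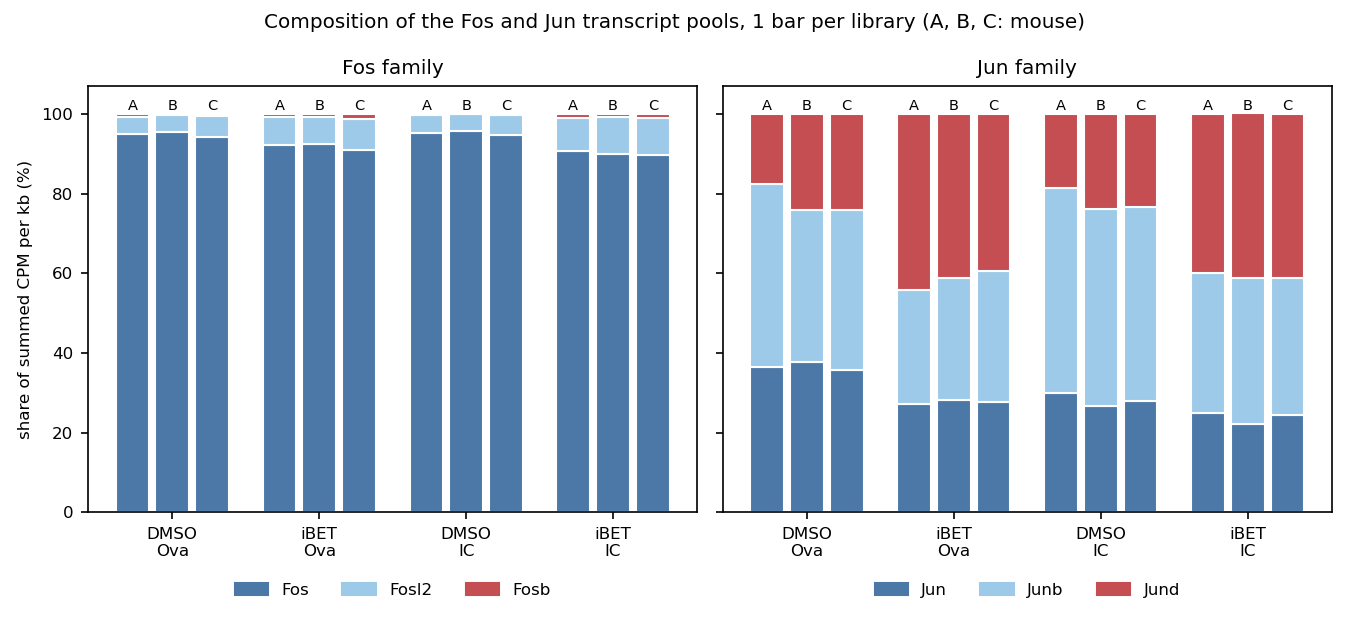
Share (%, vertical axis) of each gene in a summed level per kilobase, with 1 stacked bar per library, in the 4 groups. The sum is of Fos, Fosb and Fosl2, without Fosl1 (left), and of Jun, Junb and Jund (right). The Jund part of the right-hand bars was between 39.5% and 44.2% in the 6 iBET libraries and between 17.6% and 24.2% in the 6 DMSO libraries.

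Atf3 rose with iBET when IC was present. Its level was 118, 108 and 124 CPM in DMSO IC and 160, 193 and 180 CPM in iBET IC, which did not overlap. The log2 change was 0.61 ± 0.11, adjusted p = 0.00103, and it was 0.49 without mouse B, where it was no longer past the threshold (adjusted p = 0.0585). In Ova the values were 123, 130 and 104 CPM in DMSO and 133, 130 and 138 CPM in iBET, with a log2 change of 0.16 (95% interval -0.07 to 0.40, adjusted p = 0.285). The difference between the arms, 0.44 ± 0.15, was positive in 3 of 3 mice and had an unadjusted p of 0.0139, but an adjusted p of 1, so the arms were not shown to differ. For the mean of both arms Atf3 rose by 0.39 ± 0.08 (adjusted p = 0.00128), which held without any 1 library or mouse.

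Counted over the members tested, iBET called 4 of 9 in Ova (3 higher, 1 lower) where 31.3% of all genes were called, and 7 of 9 in IC (4 higher, 3 lower) where 34.8% were. The groups did not overlap for 4 of 9 members in Ova and 8 of 9 in IC, against 45.1% and 48.6% of all genes. The median log2 change of the members was 0.19 in Ova and 0.36 in IC, beside 0.02 and 0.00 over all genes. Over both arms together 7 of 9 were called, where 48.6% of all genes were. The members were chosen with earlier results of these data known. Their counts beside all genes, here and for IC below, are therefore a description, and the members were not tested as a set.

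**Figure D3:**
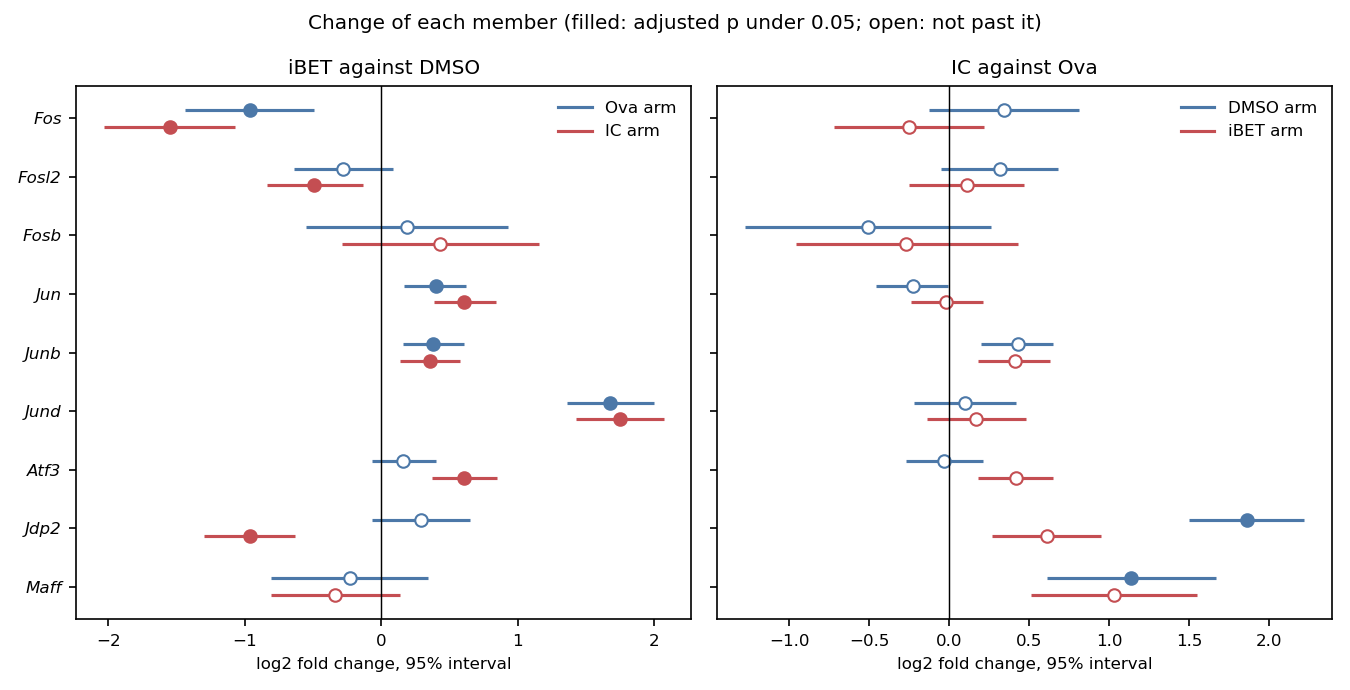
Log2 fold change (horizontal axis) with its 95% interval for the 9 members tested, for iBET against DMSO (left, in the Ova and the IC arm) and IC against Ova (right, in the DMSO and the iBET arm). Filled points passed an adjusted p of 0.05. Jund lay near 1.7 in both arms on the left, and Jdp2 lay at 1.86 in DMSO and 0.61 in iBET on the right.

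The comparison of IC with Ova asked which members differ between insoluble IgG-bound ovalbumin and ovalbumin alone at 4 hours. No group separates Fc gamma receptor engagement from the other differences between these stimuli. In DMSO, Jdp2 and Maff rose, 2 of 9 members, where 1.22% of all genes were called (2.75% with mouse as a block). Jdp2 encodes a dimerization partner of Jun that tends to repress AP-1 sites. It shares 165 exon bases with the noncoding gene Gm47863 on the opposite strand, and how strand was used in counting is not given. Jdp2 went from 15.9, 11.7 and 14.8 CPM with Ova to 60.5, 48.2 and 41.9 CPM with IC. The groups lay far apart, and the log2 change was 1.86 ± 0.17 (3.63-fold, adjusted p = 0.000676). It rose by 1.91, 2.03 and 1.49 in the 3 mice. The call held whichever of the 12 libraries was left out (adjusted p up to 0.00894), and without mouse A's DMSO Ova library the change was 1.90. Without mouse B the change was 1.75 but its adjusted p was 0.285, in a fit where 0 genes of the whole table were called in edgeR.

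Maff went from 1.54, 2.61 and 2.57 CPM with Ova to 4.88, 6.27 and 5.05 CPM with IC, on 3 to 58 counts per library. The groups did not overlap and the log2 change was 1.14 ± 0.24, but the adjusted p of 0.0443 was lost in each of the 12 fits that left out 1 library (0.0512 to 0.164) and in the fits without mouse A, B or C. Over both drug arms Maff rose by 1.09 ± 0.17 (adjusted p = 0.00512), which held without any 1 library and was lost without mouse B (adjusted p = 0.273) or mouse C (adjusted p = 0.067).

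Junb was higher with IC in 3 of 3 mice in either arm, and its groups did not overlap. The log2 change was 0.43 ± 0.10 in DMSO (adjusted p = 0.0804) and 0.41 ± 0.10 in iBET (adjusted p = 0.187), neither past the threshold in edgeR. The DMSO change was past it in DESeq2 and with 1 surrogate variable (adjusted p = 0.0163 in each) and without mouse C's iBET Ova library (adjusted p = 0.0346). The iBET change was past it in the same 3 fits (adjusted p of 0.0353, 0.0444 and 0.0449). Over both arms it rose by 0.42 ± 0.07 (adjusted p = 0.00804), so with Jdp2 and Maff 3 of 9 members were called for the mean response to IC, where 2.95% of all genes were (5.74% with mouse as a block). That call was lost without mouse B (adjusted p = 0.498).

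Fos did not pass the test for IC in either arm at 4 hours, the only time sampled, so earlier changes were not read. The log2 change was 0.34 in DMSO, with a 95% interval from -0.13 to 0.81, and -0.25 in iBET, with an interval from -0.72 to 0.22. Jun gave -0.23 in DMSO (interval -0.46 to -0.01, unadjusted p = 0.0441, adjusted p = 0.411) and -0.02 in iBET. Jund changed by 0.10 and 0.17 and Fosl2 by 0.32 and 0.11, none past the threshold, and the sign for Jund in DMSO turned to -0.07 without mouse A's DMSO Ova library. The groups did not overlap for 5 of the 9 members in DMSO, 4 higher and 1 lower with IC, where 15.3% of all genes did not, and for 5 in iBET, all higher, where 18.9% did not.

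In iBET, 0 of 9 members were called for IC in edgeR, where 0.349% of all genes were (0.741% with mouse as a block). Junb, Atf3, Jdp2 and Maff had an unadjusted p under 0.05, and DESeq2 called 1, Junb (adjusted p = 0.0353), and 0.898% of all genes. Jdp2 went from 15.7, 16.4 and 18.7 CPM to 26.8, 26.7 and 23.6 CPM, a log2 change of 0.61 ± 0.16 (adjusted p = 0.203). Maff went from 2.01, 2.43 and 1.81 CPM to 4.75, 4.65 and 3.24 CPM, a change of 1.03 ± 0.24 (adjusted p = 0.132). Atf3 changed by 0.42 ± 0.11 (adjusted p = 0.214). Each of the 3 was higher with IC in 3 of 3 mice with no overlap between groups.

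Among the 9 members tested, Jdp2 had the largest difference in its response to IC between the drug arms, though it was not called in edgeR. With IC present, iBET lowered Jdp2 from 60.5, 48.2 and 41.9 CPM to 26.8, 26.7 and 23.6 CPM (log2 change -0.96 ± 0.15, adjusted p = 0.000447), whereas with Ova the change was 0.29 (95% interval -0.07 to 0.65, adjusted p = 0.206). The difference, which is the interaction, was -1.26 ± 0.23 with a 95% interval from -1.75 to -0.77, and it was -1.15, -1.33 and -1.16 in the 3 mice. Its unadjusted p was 0.000112 and its adjusted p 0.642 over all genes in edgeR, and DESeq2 gave an adjusted p of 0.0112. In edgeR 0 of 9 members and 0 of 11468 genes (0.0%) were called for the interaction, 2 members (Jdp2 and Atf3) and 292 genes had an unadjusted p under 0.05, and DESeq2 called 1 member and 4 genes (0.0349%).

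**Figure D4:**
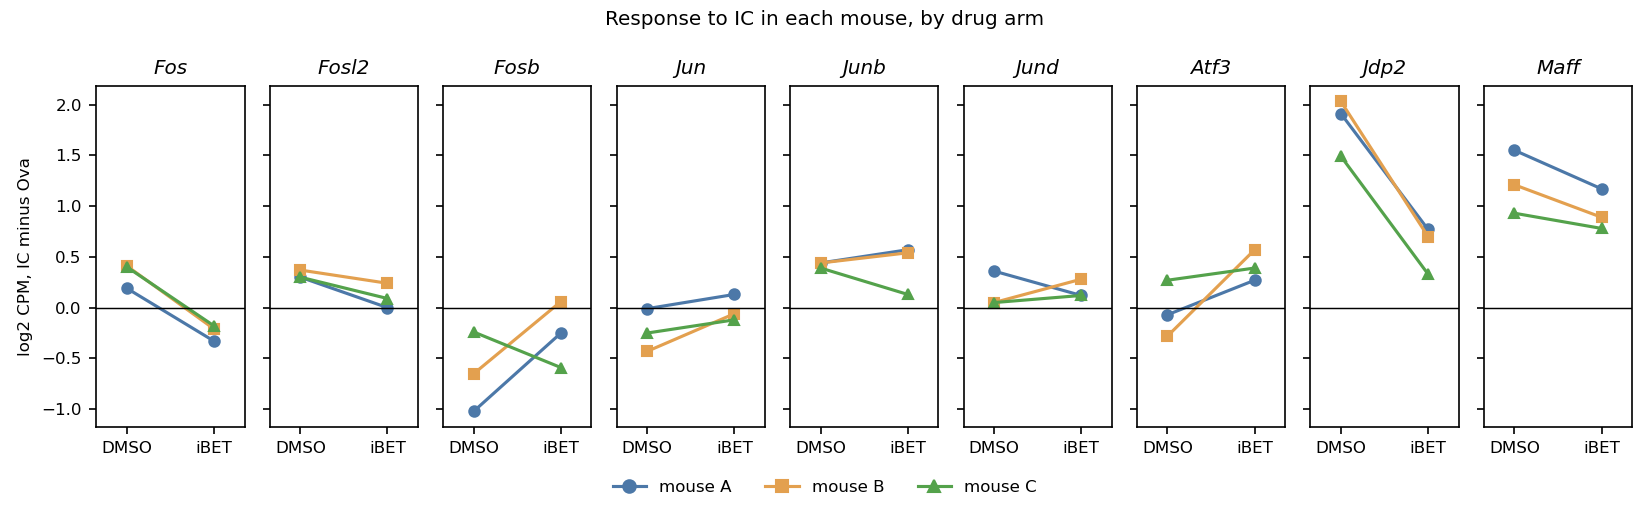
Difference in log2 CPM between IC and Ova (vertical axis, log scale in base 2) in each mouse, joined between the DMSO and the iBET arm, for the 9 members tested. All 3 lines for Jdp2 fell, from between 1.49 and 2.03 in DMSO to between 0.33 and 0.77 in iBET, and all 3 lines for Fos crossed 0.

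Batf3 had too few counts for the main test and was summed over the 3 libraries of each group. There were 19 counts in DMSO Ova (95% exact Poisson interval 11.4 to 29.7), 9 in iBET Ova (4.12 to 17.1), 6 in DMSO IC (2.2 to 13.1) and 11 in iBET IC (5.49 to 19.7), intervals that cover counting error only. These sums are not scaled for depth, which differed between the groups. Scaled levels ran from 0.0842 to 1.03 CPM. Their means were 0.802 CPM in DMSO Ova, 0.289 in iBET Ova, 0.192 in DMSO IC and 0.305 in iBET IC. In a fit without the filter its lowest unadjusted p among the 4 comparisons was 0.0294, for IC against Ova in DMSO (log2 change -1.87, adjusted p = 0.495 in edgeR), so no difference passed the test.

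Other AP-1 genes were read beside the members from a list of 7, namely Fosl1, Atf2, Atf7, Batf, Batf2, Mafg and Mafk, all of which were tested. With iBET, 2 rose and 1 fell in each arm, where 31.3% of all genes were called in Ova and 34.8% in IC. The one that fell was Fosl1, which encodes Fra-1: it went from 6.68, 8.28 and 7.79 CPM to 1.31, 0.993 and 2.03 CPM in Ova (log2 change -2.43 ± 0.29, adjusted p = 5.82e-05) and from 14.9, 13.8 and 11.7 CPM to 3.74, 3 and 1.92 CPM in IC (-2.17 ± 0.25). Mafk, another small Maf, rose by 1.10 ± 0.12 in Ova and 0.77 ± 0.11 in IC, and Atf7 rose by 0.51 and 0.44. With IC, 0 of the 7 were called in edgeR in either arm alone, and Fosl1 was called for the mean of both arms (0.92 ± 0.19, adjusted p = 0.0206).

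The kinases and ternary complex factors upstream of AP-1 were taken as a list of 22 genes. With iBET 11 rose and 2 fell in Ova, and 11 rose and 2 fell in IC, with medians of 0.27 and 0.29 beside 0.02 and 0.00 over all genes. Of all genes, 31.3% were called in Ova and 34.8% in IC. Mapk8, which encodes the Jun kinase JNK1, rose by 0.74 ± 0.16 in Ova and 0.95 ± 0.16 in IC. Map2k4, a kinase that activates JNK, rose by 0.83 ± 0.11 in IC. Elk1, a ternary complex factor that activates serum response genes, rose by 0.67 ± 0.17 in Ova. Elk3, a ternary complex factor that can repress serum response genes such as Fos, changed by -2.18 and -2.26 on the log2 scale, from 75.7 ± 2.02 to 16.6 ± 2.1 CPM in Ova and from 81.2 ± 6.83 to 16.9 ± 2.66 CPM in IC (SD, n = 3). No gene of this list was called with IC.

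Of 19 genes known as AP-1 targets, 17 were tested. With IC, Tnf rose in DMSO (1.09 ± 0.16, adjusted p = 0.00576) and Tnf and Il1b rose in iBET (1.23 ± 0.16 and 3.01 ± 0.54). Il1b read 0.309, 0 and 0.113 CPM with iBET and Ova and 1.33, 1.55 and 1.2 CPM with iBET and IC, so its change rests on a reference near the floor. With iBET, 2 rose and 2 fell in Ova, where 31.3% of all genes were called. In IC 2 rose and 5 fell, where 34.8% were called. Tnf was among those that rose with iBET, by 0.59 ± 0.16 in Ova (adjusted p = 0.0151 in edgeR) and by 0.73 ± 0.16 in IC (adjusted p = 0.00317). Plau, the urokinase gene, went from 668 ± 94.2 to 116 ± 6.63 CPM in Ova and from 714 ± 48.9 to 117 ± 5.97 CPM in IC (log2 changes of -2.52 and -2.61), and Ccnd1 fell by 1.38 on the log2 scale in Ova. Mmp14, a membrane-bound matrix metalloproteinase, went from 20.2, 18.6 and 8.77 CPM to 3.15, 4.75 and 0.24 CPM in IC (-2.49 ± 0.67, adjusted p = 0.014). Hmox1, which encodes haem oxygenase 1, rose by 1.43 ± 0.15 and 1.55 ± 0.15. The list did not move one way as a whole, with a median of -0.21 in Ova and -0.19 in IC.

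A list of 12 genes that respond to handling and heat stress was read beside the members, since several members are immediate early genes too. Of the 12, 8 rose and 1 fell with iBET in Ova and 8 rose and 2 fell in IC, with medians of 1.42 and 1.48. Over all genes, 31.3% were called in Ova and 34.8% in IC. Egr1 went from 8.82 ± 2.31 to 69.8 ± 6.96 CPM in Ova, and Ier3 from 4.93 ± 0.825 to 43.8 ± 1.02 CPM in IC. Hspa1a, a heat shock chaperone, rose by 2.60 ± 0.17 and 2.80 ± 0.16. The summed level of the list overlapped between the groups, at 2630 to 3150 CPM in the 6 DMSO libraries and 2790 to 3290 CPM in the 6 iBET libraries. Egr1 (74.4 ± 3.72 CPM in iBET IC), Hspa1b (70.5 ± 6.87) and Hspa1a (57.6 ± 10.2) were a small part of this sum, so their rise could hardly show in it. With IC, 1 of the 12 was called in DMSO (Hspa1b, 0.62 ± 0.13) and 0 in iBET in edgeR. The part of handling in the members' changes was not tested.

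Across the 12 libraries the members' log2 levels were correlated as a description, on points that share groups and libraries. Fos ran with Fosl2 (Pearson r = 0.857, and 0.909 after group means were removed) and against Jun (-0.907, and -0.349 within groups) and Jund (-0.879, and 0.146 within groups). Jun and Jund ran together (0.883, and 0.344 within groups), as did Jdp2 and Maff (0.828, and -0.277 within groups). The Fos and Fosl2 relation was thus the one of these that was as high within groups as across them.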

How the data were processed

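The authors deposited whole-number read counts per gene symbol for the 12 libraries. Per the labels and the study's methods, total RNA was made into libraries with a stranded SMARTer pico kit (the labels do not name it as stranded), reads were trimmed with Trim Galore and checked with FastQC, aligned to mm10 with HISAT2 and counted with featureCounts. The annotation and the strand setting are not given in the sources used here. The labels have the cells sorted into lysis buffer, whereas the methods lyse them in culture. A second deposited table of normalised values was not used.

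Counts were filtered with filterByExpr (minimum count 10, 11468 genes kept), scaled by TMM and fitted in edgeR 4.0.16 (R 4.3.3) by robust quasi-likelihood with 1 term per group over all 12 libraries. Two-sided p-values received the Benjamini-Hochberg adjustment across every gene in the fit, with calls made below 0.05. The SE is the log2 change over the square root of F. For Maff the interaction p was raised by edgeR's Poisson bound, so no SE is given for it. Changes per mouse used log2 CPM with a prior count of 2. Levels per kb used the exon length in GENCODE vM21 (GRCm38/mm10), and promoter windows came from RefSeq (GRCm38.p6), in which all 10 members matched and mouse chromosome 18 was left out of the motif shares. The fit was tested on simulated data.

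Alternatives were DESeq2 1.42.0, its size factors in edgeR, mouse as a block, no filter, a minimum of 10 counts in each of the libraries, 1 surrogate variable (sva 3.50.0), removal of Rn45s, the compared groups fitted alone, and omission of each library and each mouse. A block fit without mouse A's DMSO Ova library was chosen after seeing the data. The labels name the mouse behind each library, which gives the pairing. After removal of group means, the 18 pairs of libraries from 1 mouse had correlations of -0.0725 to 0.542 (median 0.263), and the 36 pairs from different mice -0.499 to 0.271 (median -0.134).

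Members and gene lists were chosen with earlier results of these data known. All members are described. From each other list, up to 3 called genes with the largest absolute log2 change are named for each comparison within 1 arm, and beside each member the 2 genes with the highest Pearson correlation (mean count of at least 50). Tnf is given for iBET as well, where it ranked below the 3 largest. Each of the 3 mice gave 1 library per group.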

Additional observations from a re-analysis of the deposited data

Results flagged for a closer look

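For Fos, the response to IC went up in DMSO in 3 of 3 mice (log2 changes of 0.19, 0.41 and 0.40) and down in iBET in 3 of 3 mice (-0.33, -0.21 and -0.18). The difference between the arms was -0.59 (95% interval -1.25 to 0.08), with an unadjusted p of 0.0773 in edgeR's interaction test over 12 libraries and an adjusted p of 1, so the opposite signs did not pass the test. It lay between -0.78 and -0.39 across the alternatives.

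For Jdp2, the difference between the arms in the response to IC passed the threshold in DESeq2 (adjusted p = 0.0112) and not in edgeR (-1.26, adjusted p = 0.642). Across the alternatives that gave a value it lay between -1.37 and -1.10, and its adjusted p was 0.267 with mouse as a block and 0.0611 with 1 surrogate variable.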

How the results depend on the processing

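Of the values of member log2 changes under an alternative, 1385 kept direction and side of the threshold, 55 lost their call, 10 gained one and 28 changed sign, all of the last for changes that were not called. With the replicate block (mouse) the members called were 2 with IC in DMSO, 0 with IC in iBET, 4 with iBET in Ova, 7 with iBET in IC, 0 for the difference between arms and 3 for the mean IC response, and no member's call changed. Of all 11468 genes this block fit called 4387 with iBET in Ova and 4829 with iBET in IC, against 3593 and 3987 in the main fit. With IC in DMSO 1 member was called in place of 2 without a filter (Maff lost), with at least 10 counts in every library (Maff not tested), with the compared groups alone, and in the block fit without mouse A's DMSO Ova library, whereas DESeq2 and the surrogate variable called 3, adding Junb. With IC in iBET DESeq2 called 1 (Junb), the surrogate variable 2 (Jdp2 and Junb) and the compared groups alone 1 (Jdp2), against 0. With iBET in Ova the compared groups alone called 2 (Fos and Jund) in place of 4. For the difference between arms DESeq2 called 1 (Jdp2) against 0. Fits with the compared groups alone rest on fewer samples, and for the others the cause was not tested. Leaving out 1 library or mouse gave 0 to 2 members with IC in DMSO, 0 to 1 with IC in iBET, 1 to 5 with iBET in Ova, 4 to 7 with iBET in IC and 0 to 3 for the mean IC response. For the mean iBET effect such fits called 5 to 7. Signs turned in the block fit without mouse A's DMSO Ova library for Jund (-0.05) and Atf3 (0.01) with IC in DMSO and for Maff between arms (0.01). On leaving out 1 library or mouse they turned with IC in DMSO for Jund (-0.07 to 0.21) and Atf3 (-0.17 to 0.10), with IC in iBET for Fosl2 (-0.03 to 0.27) and Jun (-0.07 to 0.06), with iBET in Ova for Fosb (-0.09 to 0.37), between arms for Junb (-0.09 to 0.12), Jund (-0.04 to 0.25) and Maff (-0.21 to 0.04), and in the mean IC response for Fos (-0.05 to 0.14). Without division by length Fos held 82.6%, 74.2%, 83.1% and 69.7% of its pool (in DMSO with Ova, in iBET with Ova, in DMSO with IC, in iBET with IC), and Jund 14.8%, 30.4%, 15.2% and 30.2%. Over all genes, calls with IC in DMSO went from 140 to 266 (DESeq2), 315 (block), 504 (surrogate variable) and 5 (compared groups alone), those with IC in iBET from 40 to 103, 85, 130 and 99, and those of the mean IC response from 338 to 521, 658 and 909 in the first 3 of these, and DESeq2 called 4 against 0 for the difference between arms. Leaving out 1 library or mouse gave 0 to 159, 0 to 305 and 6 to 882 genes in these IC comparisons, and 1310 to 3899 with iBET in Ova (against 3593), 1769 to 4469 with iBET in IC (against 3987) and 3529 to 5614 for the mean iBET effect (against 5574). Depth limits Maff, Batf3 and the values of mouse A's DMSO Ova library.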

Other observations

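Beyond AP-1, a list of 36 other bZIP genes was read, of which 29 were tested. With iBET 9 rose and 3 fell in Ova, and 13 rose and 4 fell in IC, with median log2 changes of 0.19 and 0.39, while the median over all genes was 0.02 in Ova and 0 in IC. The share of all genes called was 31.3% in Ova and 34.8% in IC. Nfil3, which encodes a bZIP repressor, went from 5.65, 2.84 and 3.23 CPM to 16.5, 18.7 and 16.9 CPM in Ova (log2 change 2.35 ± 0.25, adjusted p = 2.67e-05 in edgeR). Creb5 fell in both arms (-2.04 ± 0.18 and -1.92 ± 0.17), as did Bach2 (-2.06 ± 0.55 and -2.33 ± 0.50) on levels of at most 4.62 CPM. With IC in DMSO 1 of the 29 was called, Cebpb, which encodes a factor of the macrophage inflammatory programme. It went from 67.8, 77.9 and 96.1 CPM to 111, 147 and 141 CPM (0.71 ± 0.14, adjusted p = 0.0279). With IC in iBET 0 of the 29 were called in edgeR.

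Several members are neighbours in the genome. On chromosome 12 Fos lies 122 kb from Jdp2, and Jdp2 lies 46.8 kb from Batf, all on the plus strand, and on chromosome 1 Batf3 lies 61.4 kb from Atf3 (GENCODE vM21). The neighbours on chromosome 12 moved alike in some comparisons and not in others. With iBET in Ova, Fos changed by -0.96, Jdp2 by 0.29 and Batf by -1.08 (adjusted p of 0.00557, 0.206 and 0.0782), and with IC in DMSO they changed by 0.34, 1.86 and 0.54 (adjusted p of 0.642, 0.000676 and 0.684), Batf on levels of 0.551 to 3.03 CPM. With iBET in IC all were lower, with log2 changes of -1.55 for Fos, -0.96 for Jdp2 and -1 for Batf (adjusted p of 0.000232, 0.000447 and 0.0507). The mean iBET effect was -1.26, -0.34 and -1.04 (adjusted p of 3.73e-05, 0.0261 and 0.00904). The differences between these genes were not tested.

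The genes outside the members whose log2 CPM ran most closely with each member over the 12 libraries are given as a description, on points that share groups. They were Tnfrsf11a (Pearson r = 0.982) and Cyp2s1 (0.973) for Fos, Fzd5 (0.994) and Il17ra (0.992) for Jund, Slc4a7 (0.963) and Pofut2 (0.927) for Jdp2, and Ralgds (0.98) and Eif4e (0.943) for Maff. For Jun they were Snap29 (0.961) and Tob1 (0.957), for Junb Marcksl1 (0.96) and Txnrd1 (0.935), for Fosl2 Tbc1d2b (0.948) and Acbd6 (0.926), for Atf3 Mroh1 (0.893) and Tor1aip2 (0.883), and for Fosb Msh6 (0.865) and Mrc1 (0.843).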
